A study of Mus musculus with 8 samples.

Results

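The Nat8 family is a set of 8 paralogous N-acetyltransferase genes, Nat8 and Nat8f1 to Nat8f7, and all 8 were measured among the 19505 genes that had a named probe. The members were chosen by gene symbol, with their difference between ages already known, so the age differences of the 8 genes are given here as a description and not as a test. Whole-kidney RNA was read on Clariom S Mouse arrays of 1 colour, with 4 mice at 28 weeks of age (replicates 6 to 9) and 4 mice at 8 weeks (replicates 1 to 4). All 8 mice were NZBWF1, an F1 cross of NZB with NZW mice that is used as a model of lupus nephritis because kidney disease appears with age. The labels give no treatment, sex or hour of dissection, and age and the course of the disease cannot be told apart in this design. Each member had 1 probe, 8 of the 22206 on the array, and values are log2 expression values after robust multi-array averaging (RMA), which were deposited without a detection call.

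Nat8 encodes an enzyme of the endoplasmic reticulum membrane that acetylates cysteine S-conjugates, the closing step by which glutathione conjugates of drugs and reactive metabolites become mercapturic acids for excretion in urine. The kidney, and its proximal tubule above all, is a main site of this pathway, where conjugates are trimmed to cysteine conjugates at the brush border and then acetylated inside the cell. Nat8 has also been described as a lysine acetyltransferase of the endoplasmic reticulum, supplied with acetyl-CoA by the transporter Slc33a1. The Nat8f genes are its tandem paralogs, earlier called camello-like genes after a Xenopus gene, and the substrates of most of them are less well defined. In the RefSeq gene table Nat8f3, Nat8f6 and Nat8f7 shared the older name Cml3, so older data may not separate these 3 genes. The label of the set names the proximal tubule. Whole-kidney RNA gives no location, and fewer cells of a type and less RNA per cell cannot be told apart in it.

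The cluster lies on mouse chromosome 6, in the order Nat8f7, Nat8f3, Nat8f6, Nat8f5, Nat8, Nat8f2, Nat8f4, Nat8f1. RefSeq promoter windows (build GRCm38.p6, 250 bases before to 50 after an annotated start) were found for all 8 members, in 10 windows that were all on the minus strand. Nat8f7, Nat8f6, Nat8f5 and Nat8f2 had a short stretch in common just upstream of the annotated start. It is shown because 3 of these 4 genes had much lower values at 28 weeks and Nat8f2 did not. Capitals mark 2 motifs, TTTATNATT and AGCCAAT, picked after the windows were seen, each with 10 flanking bases, 5′ to 3′ on the minus strand.
Nat8f7, chr6:85708614-85708667: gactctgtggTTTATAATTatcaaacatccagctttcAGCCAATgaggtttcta
Nat8f6, chr6:85809922-85809975: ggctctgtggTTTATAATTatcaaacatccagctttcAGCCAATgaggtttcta
Nat8f5, chr6:85821010-85821056: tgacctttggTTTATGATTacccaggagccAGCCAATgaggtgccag
Nat8f2, chr6:85869133-85869179: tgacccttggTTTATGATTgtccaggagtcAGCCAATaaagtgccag
The gap between the motifs was 18 bases in Nat8f7 and Nat8f6 and 11 bases in Nat8f5 and Nat8f2. The TTTATNATT motif began 96, 88, 74 and 32 bases before the annotated start of Nat8f7, Nat8f6, Nat8f5 and Nat8f2. On either strand it was found in 1.84% of all 32851 promoter windows of the table, and AGCCAAT in 7.86%. Both in this order on the gene's strand, at most 40 bases apart, occurred in 5 windows of the 32851 (0.0152%), those of the 4 paralogs and of Gm12348. Since the motifs were read off the paralogs, this count describes how alike the windows are and is no evidence of a site.

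Some promoter windows were also near-identical over longer stretches, some of which ran past the annotated start. Over the 43 pairs of windows from different members, local alignment gave 6 with at least 40 aligned bases. Nat8f7 and Nat8f6 were identical at 286 of 292 aligned bases (97.9%). Nat8f3 and the upstream window of Nat8, which has 2 annotated starts, were identical at 203 of 206 aligned bases (98.5%). This stretch ran from -156 to 49 relative to the start of Nat8f3. Relative to the upstream start of Nat8 it ran from -250 to -44, so it was shifted against the starts. The other 4 pairs all included Nat8f5 and were shorter. Nat8f5 was identical to Nat8f2 at 58 of 70 aligned bases (82.9%), to Nat8f7 at 53 of 63 (84.1%), to Nat8f6 at 35 of 48 (72.9%) and to the downstream window of Nat8 at 37 of 44 (84.1%). The 250 bases before the start of Nat8f6, the member with the largest difference, are printed with the same 2 motifs in capitals.
Nat8f6, chr6:85809878-85810127: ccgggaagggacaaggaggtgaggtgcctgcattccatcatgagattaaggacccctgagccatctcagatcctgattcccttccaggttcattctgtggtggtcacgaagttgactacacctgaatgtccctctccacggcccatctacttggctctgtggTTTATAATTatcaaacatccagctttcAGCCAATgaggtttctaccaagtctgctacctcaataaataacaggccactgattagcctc
The 250 bases before the start of Nat8f3 and before the upstream start of Nat8 are printed, because these neighbours in sequence differed in the size of their change. Capitals mark the stretch aligned between them. In Nat8f3 it runs on past the start to the end of the window, and that last part is not printed.
Nat8f3, chr6:85765745-85765994: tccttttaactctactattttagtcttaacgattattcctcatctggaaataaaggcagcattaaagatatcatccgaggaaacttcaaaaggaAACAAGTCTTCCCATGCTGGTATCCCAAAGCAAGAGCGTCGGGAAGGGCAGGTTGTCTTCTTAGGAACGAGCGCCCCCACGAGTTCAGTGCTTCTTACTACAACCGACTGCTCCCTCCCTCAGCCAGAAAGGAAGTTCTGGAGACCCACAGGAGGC
Nat8, upstream start, chr6:85836858-85837107: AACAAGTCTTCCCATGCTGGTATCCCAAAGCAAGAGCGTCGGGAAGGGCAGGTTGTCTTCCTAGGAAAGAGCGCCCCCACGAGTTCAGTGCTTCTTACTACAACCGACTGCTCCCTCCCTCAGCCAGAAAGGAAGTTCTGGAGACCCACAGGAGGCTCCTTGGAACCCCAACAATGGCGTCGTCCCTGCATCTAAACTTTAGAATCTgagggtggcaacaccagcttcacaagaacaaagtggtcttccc
Motifs of clock and tubule factors were looked for as well. Neither the E-box CACGTG nor TTANNTAA, a core of the D-box that binds clock-output factors, was in any of the 10 member windows. On either strand they were in 7.15% and 6% of all windows. At such shares 10 windows, some of them near-identical, cannot show that a motif is lacking. The whole palindromic motif of the tubule factor HNF1 was in none of the member windows and in 3 of all 32851 windows. One arm of it, GTTAAT, was in the windows of Nat8f5 and of the downstream start of Nat8, and in 7.1% of all windows.

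At 28 weeks 6 of the 8 paralogs were far lower than at 8 weeks, while Nat8f2 and Nat8f4 were not. The 6 were Nat8f6, Nat8f3, Nat8f7, Nat8f5, Nat8f1 and Nat8, from 11.2-fold to 3.94-fold lower. The lowest 28-week arrays of Nat8f5 (5.56), Nat8f3 (6.26), Nat8 (6.59) and Nat8f6 (6.72) lay near or below the array medians of 5.98 to 6.14. Without a detection call, the folds of these genes depend on how far the signal was above background. In a limma fit over all 22206 probes with Benjamini-Hochberg adjustment, 6 of the 8 members were lower at an adjusted p under 0.05, against 0.522% of all probes that were lower. Leaving out 1 array at a time left 4 to 6 of these calls: that of Nat8 was kept in 2 and that of Nat8f7 in 3 of the 8 fits, and the other 4 in all 8. In the same 6 members all 28-week arrays lay below all 8-week arrays, which was so for 4.33% of probes, and their log2 differences were all -1 or below, as in 0.856% of probes. The median difference of the 8 members, 28 weeks minus 8 weeks, was -2.56 on the log2 scale, and that of all probes was -0.01. These shares are given as background, and nothing is read from them because the genes were chosen on this contrast.

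**Figure D1:**
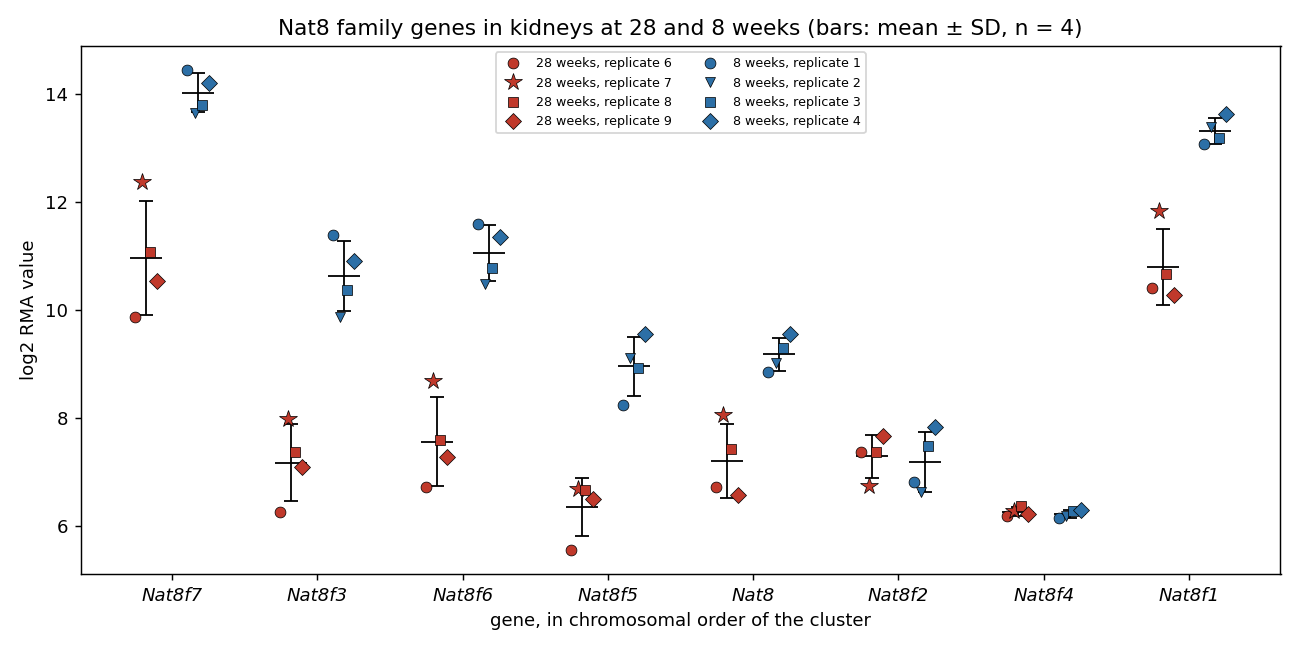
Log2 RMA value (vertical axis) of each Nat8 family gene, in chromosomal order, in the 4 arrays at 28 weeks (red, left) and the 4 at 8 weeks (blue, right), with mean and SD. The 28-week arrays lie wholly below the 8-week arrays in 6 genes, replicate 7 (star) is the highest 28-week array in these 6, and Nat8f2 and Nat8f4 overlap between the ages.

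Nat8f6 had log2 RMA values of 6.72, 8.68, 7.59 and 7.28 in 28-week replicates 6, 7, 8 and 9, against 11.60, 10.49, 10.78 and 11.36 in 8-week replicates 1, 2, 3 and 4. The 28-week mean was 7.57 ± 0.82 and the 8-week mean 11.06 ± 0.51 (SD, n = 4 each), a log2 difference of -3.49 or 11.2-fold lower. It was the 3rd most negative difference of all 22206 probes. The groups were apart by 1.81 at their nearest values, the highest 28-week array being replicate 7.

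Nat8f3 had values of 6.26, 7.99, 7.38 and 7.09 in 28-week replicates 6 to 9, against 11.38, 9.88, 10.37 and 10.91 in 8-week replicates 1 to 4. Its means of 7.18 ± 0.72 at 28 weeks and 10.64 ± 0.65 at 8 weeks (SD, n = 4 each) gave an 11-fold lower value. Its order of arrays within each age was that of Nat8f6, lowest in replicate 6 and highest in replicate 7 at 28 weeks, and lowest in replicate 2 and highest in replicate 1 at 8 weeks.

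Nat8f7, whose upstream window nearly matches that of Nat8f6, had values of 9.88, 12.36, 11.08 and 10.54 in 28-week replicates 6 to 9, against 14.44, 13.65, 13.79 and 14.20 in 8-week replicates 1 to 4. The means were 10.97 ± 1.05 at 28 weeks and 14.02 ± 0.36 at 8 weeks (SD, n = 4 each), 8.31-fold lower. Its 28-week arrays spread over 2.48, the widest of the 8 members, and replicate 7 lay 1.29 below the lowest 8-week array.

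Nat8f5 had values of 5.56, 6.70, 6.68 and 6.51 in 28-week replicates 6 to 9, against 8.24, 9.12, 8.92 and 9.55 in 8-week replicates 1 to 4. The means were 6.36 ± 0.54 at 28 weeks and 8.96 ± 0.55 at 8 weeks (SD, n = 4 each), 6.04-fold lower. The 28-week level lay near the array medians, with no detection call, so the fold depends on how far that signal was above background. Replicates 7, 8 and 9 lay close together at 28 weeks and replicate 6 alone was lower. At 8 weeks the lowest array was replicate 1, which was the highest in Nat8f3, Nat8f6 and Nat8f7.

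Nat8f1, at the far end of the cluster, had values of 10.40, 11.83, 10.67 and 10.28 in 28-week replicates 6 to 9, against 13.07, 13.38, 13.18 and 13.62 in 8-week replicates 1 to 4. The means were 10.80 ± 0.71 at 28 weeks and 13.31 ± 0.24 at 8 weeks (SD, n = 4 each), 5.73-fold lower. The 8-week arrays lay within 0.55 of each other, and at 28 weeks replicate 7 stood above the other 3.

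Nat8, the cysteine S-conjugate acetyltransferase itself, had values of 6.73, 8.06, 7.44 and 6.59 in 28-week replicates 6 to 9, against 8.86, 9.03, 9.30 and 9.55 in 8-week replicates 1 to 4. The means were 7.21 ± 0.68 at 28 weeks and 9.19 ± 0.30 at 8 weeks (SD, n = 4 each), 3.94-fold lower and the smallest change of the 6. Replicate 7 at 28 weeks lay 0.8 below the lowest 8-week array, replicate 1.

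Nat8f2 had values of 7.37, 6.75, 7.38 and 7.68 in 28-week replicates 6 to 9, against 6.82, 6.64, 7.49 and 7.83 in 8-week replicates 1 to 4. The means of 7.30 ± 0.39 at 28 weeks and 7.20 ± 0.56 at 8 weeks (SD, n = 4 each) differed by 0.10, less than either spread. The groups overlapped throughout, and replicate 7, the highest 28-week array in 6 other paralogs, was here the lowest. Nat8f4 lay between 6.19 and 6.38 at 28 weeks and between 6.15 and 6.30 at 8 weeks, a difference of 0.04. These 2 genes sit next to each other between Nat8 and Nat8f1 in the cluster, both of which were lower. Nat8f4 varied by no more than 0.19 within an age, and its level too lay near the array medians of 5.98 to 6.14, with no detection call to say whether it was above background.

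By probe brightness the 28-week means ran, from high to low, Nat8f7, Nat8f1, Nat8f6, Nat8f2, Nat8, Nat8f3, Nat8f5, Nat8f4. At 8 weeks the order was Nat8f7, Nat8f1, Nat8f6, Nat8f3, Nat8, Nat8f5, Nat8f2, Nat8f4. The probes of different genes hybridize differently, so this is an order of signal on this array and not of transcript number. At 28 weeks Nat8f7 and Nat8f1 lay within 1 SD of each other, as did Nat8f6, Nat8f2, Nat8 and Nat8f3, and Nat8f4 lay within 1 SD of Nat8f5 by the wider spread of Nat8f5. At 8 weeks the neighbours Nat8f6 and Nat8f3 (11.06 ± 0.51 and 10.64 ± 0.65) and Nat8 and Nat8f5 (9.19 ± 0.30 and 8.96 ± 0.55) lay within 1 SD of each other. Probe sequences were not used here, and how far the probes of near-identical paralogs share signal was not tested.

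Replicate 7 at 28 weeks stood apart from the other 3 mice of its age in markers of macrophages and of tubule segments and in clock genes. The mean of 11 macrophage genes relative to their 8-week means was 0.08 in replicate 7 and 2.96 to 3.76 in replicates 6, 8 and 9, where the 8-week arrays ran from -0.28 to 0.39. Adgre1, which marks macrophages, had 9.03, 5.54, 8.02 and 7.90 in 28-week replicates 6 to 9, against 5.58 to 6.34 at 8 weeks. By the same measure the distal convoluted tubule list was at -0.425 in replicate 7 and -2.755 to -2.119 in replicates 6, 8 and 9. The S1 and S2 proximal tubule list was at -0.18, against -0.66 to -0.53, and the clock list at -0.28, against -0.99 to -0.94. In the thick ascending limb list replicate 7 was the furthest from the 8-week arrays, at 0.61 against 0.17 to 0.50. The Nat8 paralogs as a set were low in replicate 7. Taken over the 8 members, the same score was -1.49 in replicate 7 and -2.69, -2.0 and -2.30 in replicates 6, 8 and 9, against -0.28 to 0.34 at 8 weeks. In replicate 7 alone the 6 lower paralogs were 2.18-fold (Nat8) to 6.25-fold (Nat8f3) below their 8-week means. That log2 difference was 47.2% (Nat8f7) to 83.4% (Nat8f5) of the mean difference in replicates 6, 8 and 9. Without replicate 7 Nat8f6 was 14.5-fold, Nat8f3 13.2-fold, Nat8f7 11.5-fold, Nat8f1 7.27-fold, Nat8f5 6.53-fold and Nat8 4.81-fold lower.

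Within an age, some paralogs kept closer to each other from array to array than others did. With each gene centred on its own mean at each age, the root mean square difference over the 8 arrays was 0.17 between Nat8f6 and Nat8f7, 0.17 between Nat8f3 and Nat8f6, and 0.19 between Nat8 and Nat8f1. Between Nat8f3 and Nat8f7 it was wider, at 0.31. Nat8f3, Nat8f6 and Nat8f7 are the genes that share the older name Cml3. Nat8 and Nat8f3 differed by 0.52, and Nat8f5 and Nat8f2 by 0.55. The stretch nearly alike in Nat8f3 and Nat8 lies at different distances from their annotated starts. The widest distances were those of Nat8f2 to Nat8f7 (0.93) and to Nat8f6 (0.82). These distances are a description of 8 arrays, with no test and no distance between unrelated genes to set them against.

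The genes around the cluster had smaller differences than the 6 lower paralogs. Set beside the members were the 10 nearest genes with a named probe on each side, in RefSeq order, and Alms1-ps2, a transcribed pseudogene between Nat8f3 and Nat8f6, 21 genes in all. None of the 21 passed the threshold in limma (adjusted p under 0.05, against 0.968% of all probes), while 5 had an unadjusted p under 0.05, against 15.0% of all probes. Their differences ran from -0.81 to 0.31 with a median of -0.15. With the dimmest 50% of probes left out, 11 of the 21 remained. The others were dim, and RMA compresses the folds of dim probes. Alms1, which encodes a protein of centrosomes and cilia and is the nearest gene on the Nat8f7 side, averaged 7.98 ± 0.40 at 28 weeks and 8.62 ± 0.23 at 8 weeks (SD, n = 4 each; limma adjusted p = 0.178). Tprkb, a subunit of the complex that modifies transfer RNA and the nearest on the Nat8f1 side, averaged 11.71 ± 0.37 at 28 weeks and 12.34 ± 0.26 at 8 weeks (SD, n = 4 each; limma adjusted p = 0.18). Without 28-week replicate 7 Tprkb passed the threshold (limma adjusted p = 0.0478, log2 difference -0.79). It was the 1 neighbour called in that fit, in which 1237 of all 22206 probes were called, 432 of them as lower. All 28-week arrays lay below all 8-week arrays in 3 of the 21, against 4.33% of all probes. These were Alms1, Alms1-ps2 and the phosphatase gene Dusp11. In Egr4 all 28-week arrays lay above all 8-week arrays, but its means at both ages were below the array medians of 5.98 to 6.14. Alms1-ps2, Dusp11 and Egr4 were named after their values were seen. The difference was -0.81 for Alms1-ps2 (limma adjusted p = 0.143) and -0.46 for Dusp11 (limma adjusted p = 0.171).

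**Figure D2:**
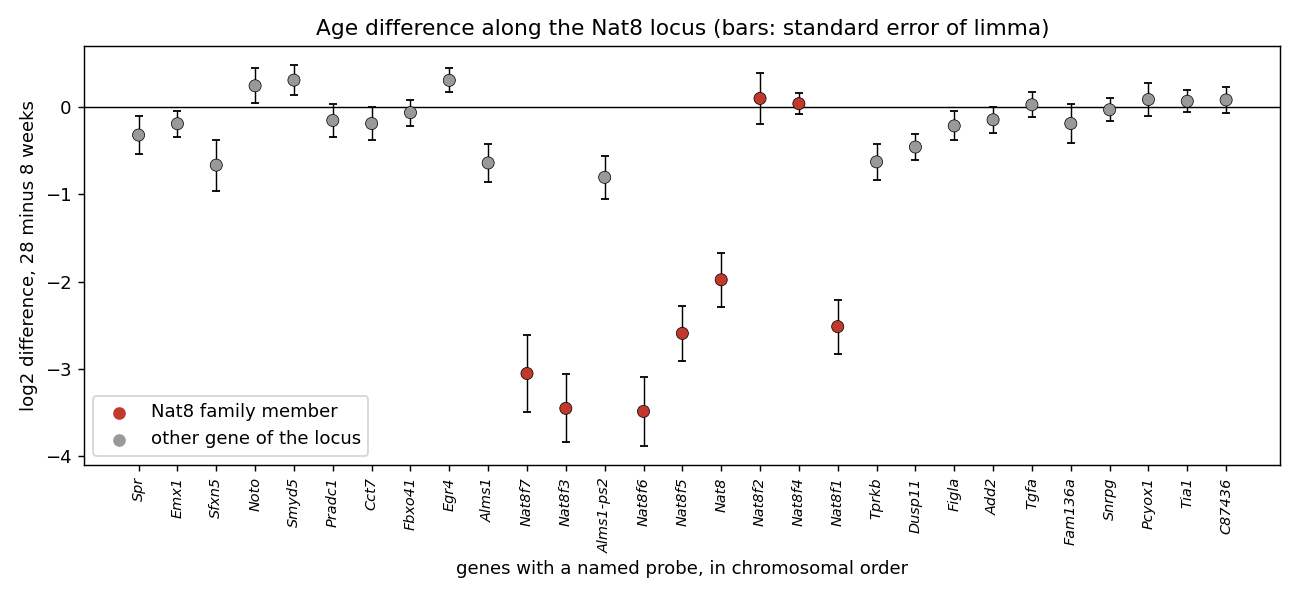
Log2 difference, 28 weeks minus 8 weeks, of the 8 Nat8 family genes (red) and 21 other genes (grey) in chromosomal order, with the standard error of the limma fit. The members reach -3.49, the other genes stay between -0.81 and 0.31, and Nat8f2 and Nat8f4 lie at 0.10 and 0.04 between lower members.

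The rest of the mercapturic acid pathway was compared next, from lists of enzymes and transporters that do not include the Nat8 family. Of 50 measured genes 3 were lower and none higher in limma at an adjusted p under 0.05, against 0.522% and 0.446% of all probes. The median difference was -0.14. An unadjusted p under 0.05 in limma was found for 15 of the 50, against 15.0% of all probes. All 28-week arrays lay below all 8-week arrays in 9, against 4.33% of all probes. They lay above them in 4, and that share over all probes was not computed. Among these were Gsta2 (log2 difference 0.77) and Abcc4 (0.71), neither past the threshold and both named after their values were seen. Without 28-week replicate 7, 5 genes passed the threshold, all lower, in a fit that called 432 of all 22206 probes as lower. The fits that left out 1 array gave 0 to 5 calls. Among 25 genes of glutathione synthesis and conjugation the median was 0.02. Gstt2, a theta-class glutathione transferase gene, had 13.68, 13.99, 13.75 and 13.54 in 28-week replicates 6 to 9, against 15.56, 15.19, 14.80 and 14.92 in 8-week replicates 1 to 4. It was the 1 gene of that list past the threshold (limma adjusted p = 0.017, log2 difference -1.38), and it was past it in 4 of the 8 fits that left out 1 array. Of 13 genes that break conjugates down, Dpep1, the brush-border dipeptidase that releases cysteine conjugates, fell to 12.57 ± 0.29 at 28 weeks, against 13.55 ± 0.23 at 8 weeks (SD, n = 4 each; limma adjusted p = 0.044). The groups did not overlap in Dpep1, but its adjusted p passed the threshold in 1 of the 8 fits that left out 1 array, the one without 28-week replicate 7. Ggt1 and Acy3 were on the lists but had no named probe and were not analysed here.

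The enzymes that act on cysteine conjugates beside the acetyltransferase had small differences. Acy1, an aminoacylase that can take the acetyl group off again, averaged 14.83 ± 0.61 at 28 weeks and 14.93 ± 0.32 at 8 weeks (SD, n = 4 each; limma adjusted p = 0.921). Kyat1 and Kyat3, beta-lyases that cleave cysteine conjugates, had differences of -0.26 and -0.14, with limma adjusted p of 0.617 and 0.81. None of these 3 genes had an unadjusted p under 0.05. Of 9 transporters, Slc22a6, the basolateral organic anion transporter OAT1 of the proximal tubule, had 14.66, 14.54, 14.76 and 14.42 in 28-week replicates 6 to 9, against 15.65, 15.20, 15.55 and 15.63 in 8-week replicates 1 to 4 (log2 difference -0.91, limma adjusted p = 0.0313). It was the 1 transporter past the threshold, and was past it in 2 of the 8 fits that left out 1 array, those without 28-week replicate 7 and 8-week replicate 2.

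Among other acetyl- and acyltransferases, 1 of 17 measured passed the threshold and it was lower, against 0.522% of all probes that were lower. This was Sat2, a diamine acetyltransferase gene, at 8.81 ± 0.36 at 28 weeks and 9.99 ± 0.20 at 8 weeks (SD, n = 4 each; limma adjusted p = 0.0309). The call was lost in 7 of the 8 fits that left out 1 array, all but that without 28-week replicate 7. The median difference of the 17 was -0.17 and the lowest that of Sat2, -1.18. Together with the 3 genes of acetylation in the endoplasmic reticulum given below, they were 20 genes. With the dimmest 50% of probes left out 12 of the 20 remained, so the median rests in part on dim genes. Nat8l, the relative that makes N-acetylaspartate in brain, averaged 3.05 ± 0.15 at 28 weeks and 3.12 ± 0.21 at 8 weeks (SD, n = 4 each), near the lowest value deposited, 2.31. Slc33a1, the acetyl-CoA transporter of the endoplasmic reticulum, averaged 12.07 ± 0.12 at 28 weeks and 12.63 ± 0.32 at 8 weeks (SD, n = 4 each; limma adjusted p = 0.161). Atg9a and Bace1, reported substrates of acetylation in that compartment, were measured with it. Of the 3 genes 0 passed in limma while 2 had an unadjusted p under 0.05, against 15.0% of all probes.

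**Figure D3:**
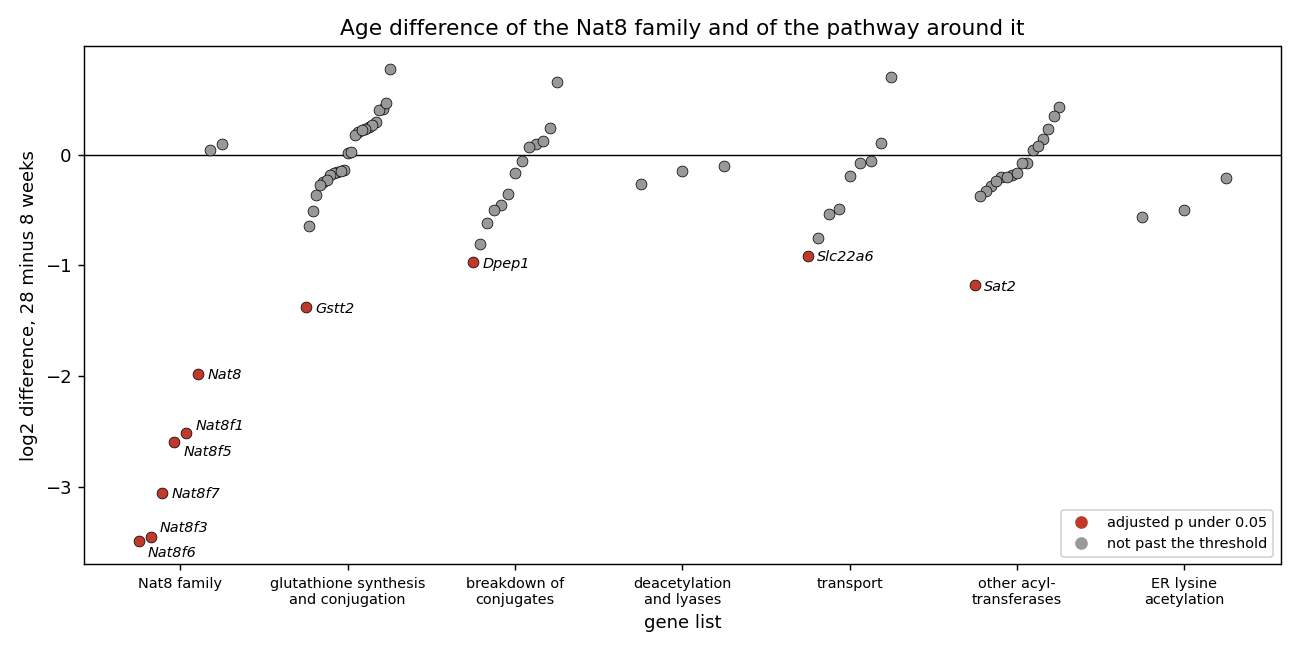
Log2 difference, 28 weeks minus 8 weeks, of each gene (point) of the Nat8 family and of 6 lists from the pathway around it. Red points had an adjusted p under 0.05. The 6 lower paralogs lie from -3.49 to -1.98, and the lowest gene of the other lists is Gstt2 at -1.38.

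Markers of the proximal tubule had mostly negative differences, of smaller size than the 6 lower paralogs. Of 22 markers of segments S1 and S2 all had a negative difference, with a median of -0.35. An unadjusted p under 0.05 in limma was found for 11, against 15.0% of all probes. The threshold was passed by 1, Slc22a6, against 0.522% of all probes that were lower. Of 12 markers of segment S3, 10 were negative, with a median of -0.21 and 1, Slc22a30, past it (log2 difference -1.80, limma adjusted p = 0.000795, and past it in all 8 fits that left out 1 array). Without 28-week replicate 7, 5 of the S1 and S2 markers and 2 of the S3 markers passed, all lower. In that fit 432 of all 22206 probes passed as lower, more than in the fit of all arrays. Slc34a1, the main phosphate transporter of this segment of the nephron, averaged 17.64 ± 0.23 at 28 weeks and 18.21 ± 0.24 at 8 weeks (SD, n = 4 each; limma adjusted p = 0.145). Lrp2, the endocytic receptor megalin, averaged 18.05 ± 0.23 at 28 weeks and 18.13 ± 0.12 at 8 weeks (SD, n = 4 each; limma adjusted p = 0.877). Slc5a2, the glucose transporter SGLT2 of segment S1, had 13.67, 14.80, 13.64 and 13.47 in 28-week replicates 6 to 9, against 15.03 to 15.27 at 8 weeks (limma adjusted p = 0.0606, and 0.000418 without 28-week replicate 7). The summed level of the S1 and S2 list, the log2 of the sum of its linear values, was 20.97 to 21.21 at 28 weeks and 21.29 to 21.40 at 8 weeks. For the S3 list it was 17.53 to 18.11 at 28 weeks and 17.84 to 18.26 at 8 weeks, and for the 8 Nat8 paralogs 11.49 to 13.30 at 28 weeks and 14.73 to 15.20 at 8 weeks. Slc34a1, Lrp2 and Slc5a2 were far above the array medians at both ages, so transcripts of proximal tubule were present in all 8 arrays. The part of these markers in the Nat8 differences was not tested.

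Markers of other cells also differed in level between the ages. All 11 macrophage markers had a positive difference, with a median of 2.63. None passed in limma over all probes, while 10 had an unadjusted p under 0.05, against 15.0% of all probes. Without 28-week replicate 7, 10 of the 11 passed, all higher. That fit called more of all 22206 probes than the fit of all arrays, 432 as lower and 805 as higher. Their summed level was 11.65 to 14.84 at 28 weeks and 10.75 to 11.63 at 8 weeks. Lyz2, the myeloid lysozyme gene, was 14.10, 8.78, 12.83 and 12.45 in 28-week replicates 6 to 9, against 6.84 to 8.90 at 8 weeks. C1qa, a complement subunit gene of macrophages, averaged 8.74 ± 1.58 at 28 weeks and 6.21 ± 0.17 at 8 weeks (SD, n = 4 each; limma adjusted p = 0.0901, and 0.000432 without 28-week replicate 7). All 5 markers of the distal convoluted tubule had a negative difference, with a median of -1.84, and Pvalb passed (limma adjusted p = 0.0462, lost in 7 of the 8 fits that left out 1 array, all but that without 28-week replicate 7, in which all 5 markers passed as lower). Of the thick ascending limb markers 6 of 7 were positive (median 0.48, with Umod at 0.22), of the collecting duct 6 of 9 and of podocytes 4 of 5 were negative (medians -0.26 and -0.37), and of hepatocyte genes 5 of 8 were positive (median 0.09, with Alb at 0.70). The genes of smallest p in them were Slc12a1 (0.99) and Egf (-0.85) in the thick ascending limb, Aqp3 (-1.03) and Slc26a4 (-0.56) in the collecting duct, Podxl (-0.48) and Ptpro (-0.44) in podocytes, and Serpina1a (1.71) and Ttr (0.80) among hepatocyte genes, given as log2 differences. None of these 4 lists had a gene past the threshold in limma. Of their genes 5, 4, 1 and 3 had an unadjusted p under 0.05, against 15.0% of all probes. Without 28-week replicate 7, 2 thick ascending limb markers passed, Egf as lower (limma adjusted p = 0.01) and Cldn16 as higher, and none of the other 3 lists had a call in any fit that left out 1 array. The part of cell makeup in the Nat8 differences was not tested.

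**Figure D4:**
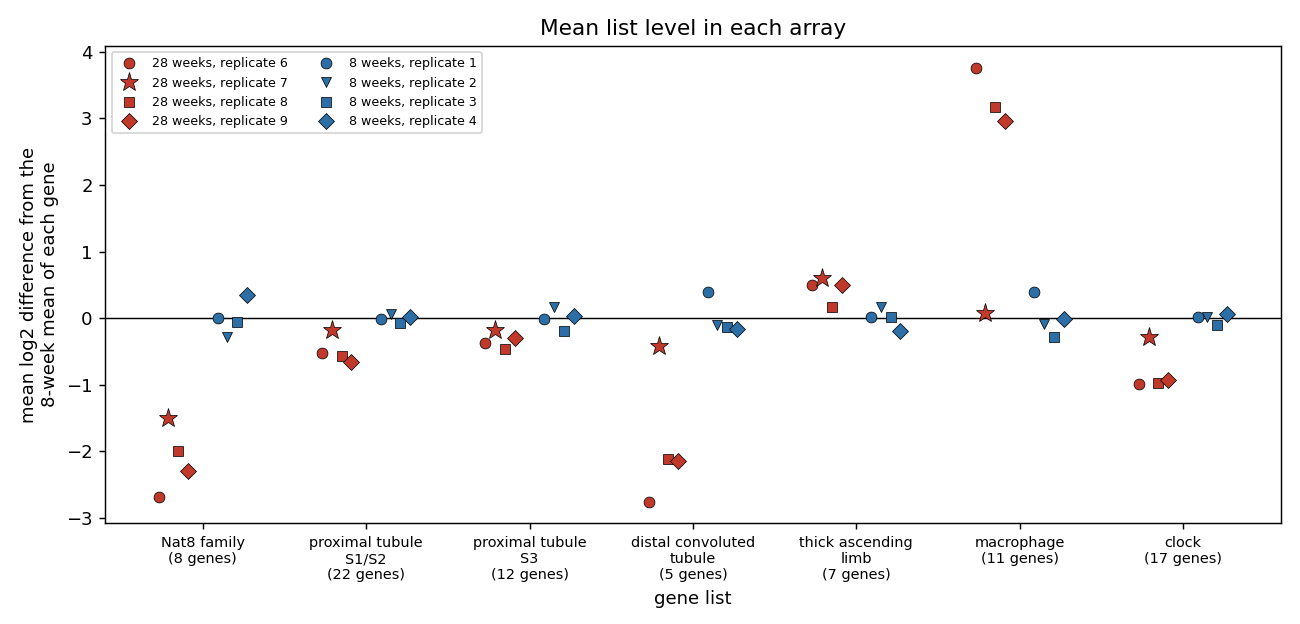
Mean log2 difference of each list from the 8-week means of its genes, in each array at 28 weeks (red, left) and 8 weeks (blue, right), with 28-week replicate 7 as a star. The Nat8 family is at -1.49 in replicate 7, where the macrophage list is at 0.08, inside the range of the 8-week arrays. Replicate 7 is the lowest 28-week array in the macrophage list and the highest in each other list shown.

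Clock genes differed between the ages as well, and the hour at which kidneys were taken is not in the labels. Of 17 clock genes 5 were lower and 2 higher in limma at an adjusted p under 0.05, against 0.522% and 0.446% of all probes. In the same fit 15 of the 17 had an unadjusted p under 0.05, against 15.0% of all probes. Dbp, a clock-output transcription factor, had 10.13, 14.06, 11.05 and 12.14 in 28-week replicates 6 to 9, against 16.27 to 16.61 at 8 weeks (limma adjusted p = 0.0214). Arntl, which encodes the clock activator BMAL1, averaged 8.59 ± 0.83 at 28 weeks and 5.70 ± 0.40 at 8 weeks (SD, n = 4 each; limma adjusted p = 0.0132). Tef, a relative of Dbp, averaged 4.34 ± 0.37 at 28 weeks and 5.61 ± 0.38 at 8 weeks (SD, n = 4 each; limma adjusted p = 0.0426). Both means of Tef lay below the array medians of 5.98 to 6.14, with no detection call. Of the 8 fits that left out 1 array, Arntl passed in 5, Dbp in 3 and Tef in 1, that without 28-week replicate 7. Over the list, these fits called 1 to 12 of the 17 genes, with 12 called without 28-week replicate 7. Without that array 1237 of all 22206 probes were called, against 215 with all arrays. In replicate 7 Dbp was the highest and Arntl the lowest of the 28-week arrays, each nearest to the 8-week values. The part of the hour of dissection in the Nat8 differences was not tested.

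The genes whose pattern was most like that of the family were sought by the root mean square difference over the 8 arrays between log2 values, each minus its own 8-week mean, among all 19505 named genes. The nearest gene of all was another paralog for Nat8f3 and Nat8f6 (each other, 0.18), Nat8f7 (Nat8f6, 0.35) and Nat8f5 (Nat8f1, 0.45). Among genes outside the family, the clock gene Ciart was nearest to Nat8f3 (0.55), Nat8f6 (0.48) and Nat8f7 (0.39), and the clock gene Per3 to Nat8f5 (0.49). S100g, which encodes the vitamin D-dependent calcium-binding protein calbindin-D9k, was nearest to Nat8f1 (0.31). Pcx, the pyruvate carboxylase gene of gluconeogenesis, was nearest to Nat8 (0.32). To the median profile of the 8 members the nearest were Per3 (0.31), Pcx (0.38), Pvalb (0.41), S100g (0.44) and Ciart (0.44). Ciart had 3.95, 5.44, 4.06 and 4.34 in 28-week replicates 6 to 9, against 7.43 to 7.52 at 8 weeks. Its 28-week values lay below the array medians of 5.98 to 6.14, with no detection call. Pcx had 10.28, 11.06, 10.55 and 10.01 in 28-week replicates 6 to 9, against 12.38 to 12.87 at 8 weeks. Like the 6 paralogs, Ciart and Pcx were highest in replicate 7 among the 28-week arrays. The measure is set largely by the difference between the ages, on which the members were chosen, and no test was made of it.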

How the data were processed

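Affymetrix Clariom S Mouse arrays measured kidney total RNA from 8 NZBWF1 mice, with 1 array a mouse and 4 mice at each age. The deposited values are log2 expression values, and per the submitters' processing notes the authors used RMA, its version and settings being not given in the sources used here. A log base of 2 was assumed from that convention and the range of 2.31 to 19.89, so folds rest on it, and RMA compresses the folds of dim probes. Array medians lay between 5.98 and 6.14. All 22206 probes were fitted with lmFit and eBayes in limma 3.58.1 (R 4.3.3), 28 weeks minus 8 weeks, with Benjamini-Hochberg adjustment and a threshold of 0.05. The platform annotation gave 1 symbol to 19572 probes. Genes with several probes were taken at the brightest. The RefSeq table (GRCm38.p6) gave gene order, and 0 symbols needed updating. Promoters were aligned with Biopython 1.88.

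The members, gene lists and tests were chosen with earlier results of these data known. Named were the members, up to 4 genes a list that passed in the direction with more calls, and 1 in the opposite one (the 2 of smallest p where none passed), fixed pathway and marker genes, the nearest neighbours in the locus and the most alike genes. The ages have no replicate number in common and were not paired. No batch is given in the sources used here. On 3 simulated sets of 22206 genes, limma recovered 3.33% of differences of 0.5, 47.3% of 1, 92.7% of 2 and 98.7% of 3. Alternatives were other normalizations, a filter on the dimmest 50% of probes, other variance models, array weights, 1 probe per gene and each array left out. The number of arrays limits the precision.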

Additional observations from a re-analysis of the deposited data

Results flagged for a closer look

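Among 82 groups of 4 arrays examined for the members and named genes, 8 held an array far from the other 3, where chance gives about 1 in 20. Among the members this was Nat8f5 in 28-week replicate 6, at 5.56, where the 3 others of that age had 6.51 to 6.70. In 28-week replicate 7, Slc5a2 was 14.80 against 13.47 to 13.67, and Sat2 was 9.34 against 8.56 to 8.68. In 8-week replicate 1, Slc34a1 was 18.57 against 18.08 to 18.11, Umod 18.52 against 18.31 to 18.34, Aqp3, a collecting duct water channel gene, 12.17 against 10.98 to 11.12, and Alb 9.22 against 9.74 to 9.83. Nat8l was 3.43 in 8-week replicate 3, where the 3 others of that age had 3.0 to 3.06.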

How the results depend on the processing

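In each of the 7 alternatives that kept all arrays, 6 of the 8 members were lower past the threshold. Leaving out 1 array at a time gave 4 to 6 members, with the median difference of the 8 between -2.79 and -2.36. Nat8f1, Nat8f3, Nat8f5 and Nat8f6 passed in all 15 alternatives. Nat8 passed in 2 and Nat8f7 in 3 of the 8 fits that left out an array, and both passed without 28-week replicate 7 and without 8-week replicate 1. Nat8f2 and Nat8f4 passed in none, with differences of -0.09 to 0.31 and -0.03 to 0.07. No symbol had a further probe to try.

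Calls over all probes were 399 without the dimmest 50% of probes, 399 with a variance trend and robust estimation, and 873 with array weights, against 215 as reported, and 25 to 1237 with 1 array left out (1237 without 28-week replicate 7). In those same 3 settings the mercapturic acid pathway had 6 calls (4 lower and 2 higher in each) and the proximal tubule markers 5, 5 and 7. With array weights other acyltransferases, with the acetylation genes of the endoplasmic reticulum, had 2 and clock genes 12. With 1 array left out the counts were 0 to 5 for the pathway, 0 to 1 for acyltransferases, 1 to 7 for proximal tubule markers, 1 to 12 for clock genes and 0 to 1 for the locus neighbours. The cause was not tested. No paired analysis was possible because the ages share no replicate number.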
